A study of Mus musculus with 21 samples.

Results

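The genes followed here belong to the TGF-beta superfamily and its readouts: the ligand genes Mstn (myostatin), Inhba (the activin A subunit), Tgfb1, Tgfb2 and Bmp4, the follistatin genes Fst and Fstl1, and the target genes Id1, Id2 and Id3. They were chosen by name, with every probe that the platform table maps to their symbols, and make up 10 of the 19057 genes with 1 symbol on the array. Of their 13 probes, 11 were detected on at least 3 arrays, which left 9 of the 10 genes to test; Mstn could not be tested. The probe used for each of the 9 genes was detected on all 21 arrays. RNA of 21 samples was hybridised to Illumina bead arrays. The mice had a mixed background (C57Bl/6 and 129X1/SvJ), and every animal carried the SmoM2 allele, an activated form of the Hedgehog signal transducer Smoothened. In 15 tumors the genotype was aP2-Cre/+;SmoM2/+, with Cre recombinase under the promoter of aP2 (Fabp4), which is known from adipocytes. In 3 tumors it was Myogenin-Cre/+;SmoM2/+, with Cre under the Myogenin promoter, which is known from muscle cells that differentiate. Normal tissue came from sternocleidomastoid, a muscle of the neck, in 3 samples with the genotype SmoM2/+ and no Cre named. Tumor labels name a mouse each, muscle labels number the samples without naming an animal, and ages are not given. The spread between muscle samples may therefore be technical. In the model of all 21 arrays, p-values use 1 spread per gene pooled over the 3 groups, mostly from the 15 aP2-Cre tumors.

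Ligands of this family act as secreted dimers on serine/threonine kinase receptors, which phosphorylate Smad transcription factors. Activins, myostatin and TGF-beta signal mainly through one Smad branch and bone morphogenetic proteins such as Bmp4 through another. Follistatin binds activin and myostatin outside the cell and keeps them from their receptors, and myostatin is known as a brake on muscle growth. The Id genes are direct targets of the bone morphogenetic protein branch, and Id proteins bind the E-protein partners of MyoD and myogenin, which then cannot bind DNA.

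Promoter windows of RefSeq (assembly GRCm38.p6), from 250 bases before to 50 after the start, matched 8 of the 10 genes. Windows of Bmp4, Id2 and Id3 are shown because they pair a ligand with targets of its branch, and all were higher in both kinds of tumor than in muscle. Capitals mark matches on either strand to CAGAC (a short Smad site), GGCGCC (a palindrome that Smads of the bone morphogenetic protein branch bind), CANNTG (the E-box of myogenic factors) or GGGTGGTC (the core of the Gli site), and no matches overlapped in these windows. Bmp4 at chr14:46390620-46390919 (minus strand) held 3 E-boxes. Id2 at chr12:25096043-25096342 (minus strand) held 1 GGCGCC and 1 E-box. Id3 at chr4:136143572-136143871 (plus strand) held 2 CAGAC matches.
Bmp4: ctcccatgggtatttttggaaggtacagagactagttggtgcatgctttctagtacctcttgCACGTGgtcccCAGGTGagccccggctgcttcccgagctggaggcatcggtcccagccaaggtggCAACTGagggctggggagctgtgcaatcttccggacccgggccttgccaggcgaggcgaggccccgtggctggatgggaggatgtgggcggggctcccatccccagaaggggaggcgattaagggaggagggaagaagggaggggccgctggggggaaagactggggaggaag
Id2: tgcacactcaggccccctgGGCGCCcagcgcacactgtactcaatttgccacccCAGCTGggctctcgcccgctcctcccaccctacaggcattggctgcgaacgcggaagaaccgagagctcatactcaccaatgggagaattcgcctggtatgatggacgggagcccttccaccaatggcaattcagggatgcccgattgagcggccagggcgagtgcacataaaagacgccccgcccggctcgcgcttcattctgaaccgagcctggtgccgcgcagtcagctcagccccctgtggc
Id3: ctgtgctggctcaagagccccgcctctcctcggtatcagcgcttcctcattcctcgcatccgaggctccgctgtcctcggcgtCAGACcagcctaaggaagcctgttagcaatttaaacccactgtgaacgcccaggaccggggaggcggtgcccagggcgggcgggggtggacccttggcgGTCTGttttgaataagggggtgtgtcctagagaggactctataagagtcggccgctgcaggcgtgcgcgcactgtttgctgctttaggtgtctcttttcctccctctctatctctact
Of 32851 such windows, 72.3% held an E-box, 49.6% CAGAC, 11.9% GGCGCC and 0.807% the Gli core. The Gli core was in 0 of the 8 windows. Tgfb2 held 2 CAGAC and 1 E-box, Mstn held 2 CAGAC and 4 E-boxes, and the windows of Inhba, Tgfb1 and Fstl1 held no match.

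Levels below are normalized log2 intensities, on which a difference of 1 is a 2-fold change, and an array detects a probe at a detection p under 0.01. An array detected 32.0% to 39.8% of its 45281 probes, and the 3 arrays each of muscle and Myogenin-Cre tumors limit the precision. Muscle fiber markers (Ckm, Acta1 and Myh4 among them) were detected in all 3 groups, 9 of 9 on the array, with a summed linear intensity of 167707 to 173595 in muscle, 67346 to 103961 in aP2-Cre tumors and 90285 to 99804 in Myogenin-Cre tumors. By limma (adjusted p under 0.05), 7 of the 9 were lower than in muscle in aP2-Cre tumors and 5 in Myogenin-Cre tumors. These are 77.8% and 55.6%, beside 29.8% and 23.9% of all genes. Acta1 was not called in either kind of tumor, and Ckm was not called in Myogenin-Cre tumors. In bulk samples, fewer cells of a type and less RNA per cell cannot be told apart. The authors normalized the arrays in 5 sets: muscle shares its set with 3 aP2-Cre tumors, the Myogenin-Cre tumors share theirs with 3 others, and the remaining sets contain no group but aP2-Cre tumors.

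**Figure D1:**
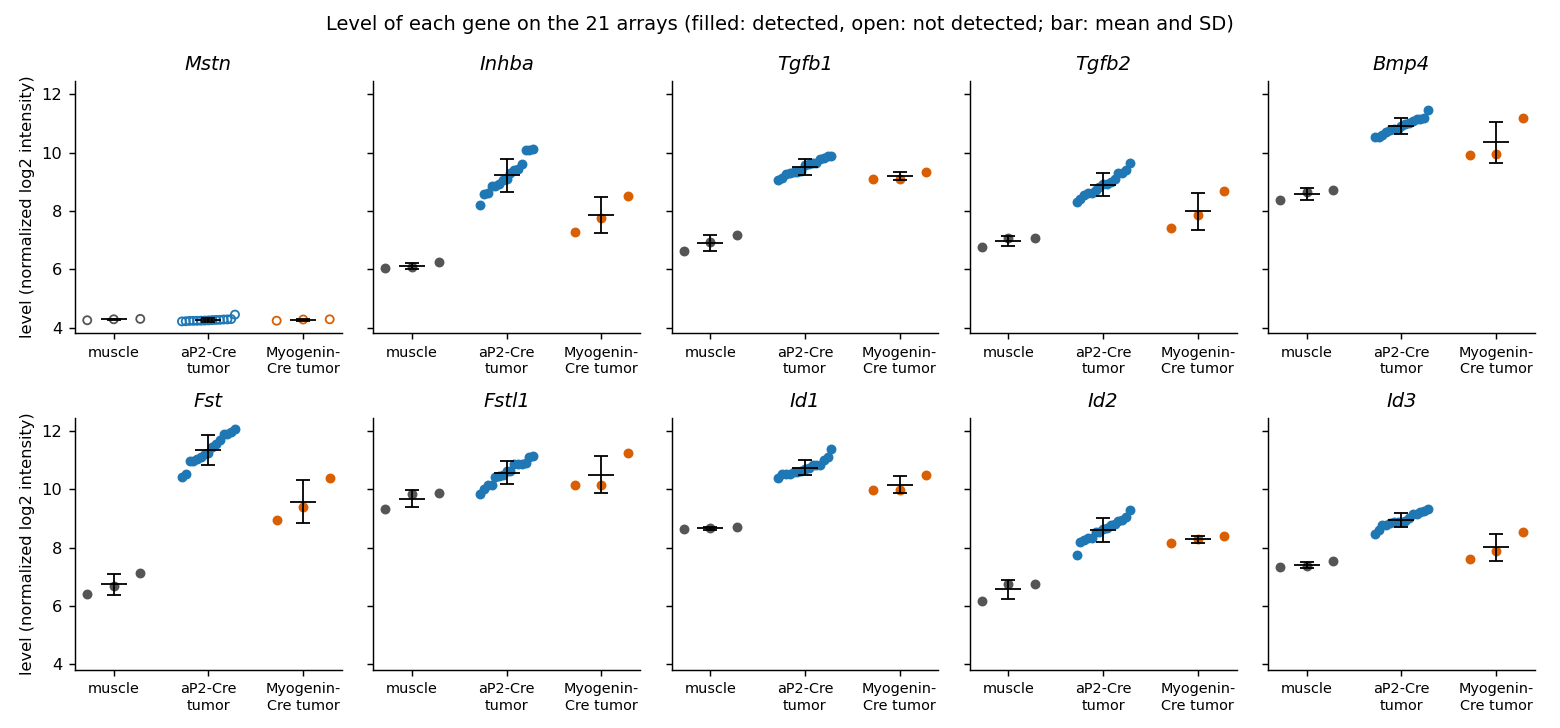
Normalized log2 intensity of the 10 genes on 21 arrays, sorted by level within muscle, aP2-Cre tumors and Myogenin-Cre tumors, with filled points for detected and open points for undetected arrays, and bars for mean and SD. Mstn is open on all arrays, Fst in aP2-Cre tumors lies between 10.43 and 12.06, above both other groups, and Fstl1 in aP2-Cre tumors overlaps with muscle.

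Levels in aP2-Cre tumors were first set against those in muscle. Ligands, follistatins and Id genes were all higher in the tumors: 9 of 9 tested members were called higher by limma at an adjusted p under 0.05, where 34.0% of 11034 genes were called higher and 29.8% lower. The median log2 difference was 2.08 over the members and 0.09 over all genes tested. The largest was that of Fst, 24.0-fold, which ranked 32 among the rises of all genes, and the smallest that of Fstl1, 1.85-fold. For 8 of the 9 genes every tumor lay above every muscle sample, which held for 25.1% of all genes.

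Among the ligands, Inhba, whose protein forms activin A and, with the inhibin alpha subunit, inhibin A, stood at 6.03, 6.08 and 6.25 in muscle and at 8.21 to 10.11 (median 9.10) in aP2-Cre tumors. The lowest tumor lay well above the highest muscle sample. The difference was 3.10 (SE 0.33, 8.56-fold, adjusted p = 5.3e-08). Tgfb1, the TGF-beta ligand known from immune and stromal cells, had 7.18, 6.94 and 6.62 in muscle samples 1 to 3 and 9.06 to 9.90 (median 9.56) in the tumors. With a range of 0.83 across 15 tumors, Tgfb1 was among the evenest of the members. Its difference was 2.60 (SE 0.16, 6.06-fold, adjusted p = 1.76e-11). Tgfb2, a TGF-beta ligand with roles in heart and skeletal development, had 7.09, 6.78 and 7.06 in muscle and 8.29 to 9.65 (median 8.91) in the tumors, a difference of 1.93 (SE 0.24, 3.80-fold, adjusted p = 6.58e-07). The groups did not overlap.

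Bmp4, a ligand of the bone morphogenetic protein branch, had 8.71, 8.66 and 8.36 in muscle and 10.53 to 11.47 (median 10.92) in aP2-Cre tumors. The difference was 2.34 (SE 0.21, 5.05-fold, adjusted p = 4e-09), again without overlap. A second Bmp4 probe was dimmer: it was detected on 0 of 3 muscle arrays and on 15 of 15 arrays of aP2-Cre tumors, with levels of 4.41 to 4.72 and 5.51 to 6.58. This probe passed the filter through the tumors alone, so it is given as a description. Over the 15 tumors both probes correlated at r = 0.65, as a description of probes read on the same arrays.

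Mstn, the muscle growth inhibitor, has 1 probe, and it was detected on 0 of the 21 arrays. Its level was 4.26 to 4.30 in muscle, 4.22 to 4.45 in aP2-Cre tumors and 4.24 to 4.29 in Myogenin-Cre tumors, all at the floor of the scale. The lowest of its 21 detection p-values was 0.511. These levels give no order, and nothing about the gene's expression is drawn from a probe that no array detected, muscle included.

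Fst, the follistatin gene, had 6.42, 6.68 and 7.14 in muscle and 10.43 to 12.06 (median 11.25) in aP2-Cre tumors. Even tumor 90, which had the lowest level, lay far above the highest muscle sample. The difference was 4.59 (SE 0.31, 24.0-fold with a 95% interval of 15.3 to 37.6, adjusted p = 7.8e-11). Fstl1, a secreted glycoprotein with a follistatin-like domain, was already bright in muscle at 9.86, 9.83 and 9.34 and reached 9.84 to 11.15 (median 10.61) in the tumors. Of 15 tumors, 14 lay above every muscle sample and tumor 164 did not. The difference was 0.89 (SE 0.25, 1.85-fold, adjusted p = 0.00388), and with the array set as a covariate it was 0.54 and was not called (adjusted p = 0.108).

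Id1, an inhibitor of basic helix-loop-helix factors, had 8.62, 8.72 and 8.66 in muscle and 10.37 to 11.39 (median 10.68) in aP2-Cre tumors, a difference of 2.08 (SE 0.16, 4.22-fold, adjusted p = 3.91e-10). Muscle samples were close together, and no tumor came near them. Id2, whose promoter window above holds the GGCGCC match, had 6.76, 6.77 and 6.18 in muscle and 7.74 to 9.30 (median 8.65) in the tumors. Its difference was 2.04 (SE 0.22, 4.10-fold, adjusted p = 8.71e-08). A second Id2 probe, detected on 0 of 3 muscle arrays and on all tumor arrays, had 5.29 to 5.61 in muscle and 6.50 to 8.21 in aP2-Cre tumors; since it passed the filter through the tumors alone, its levels are a description. The remaining one, detected on 1 of 21 arrays, was not tested. Both kept probes correlated at r = 0.28 over the 15 tumors, so the order of tumors in Id2 depends on the probe. Id3, with the CAGAC matches above, had 7.34, 7.38 and 7.54 in muscle and 8.48 to 9.31 (median 8.89) in the tumors, a difference of 1.53 (SE 0.16, 2.88-fold, adjusted p = 6.7e-08).

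When only aP2-Cre tumors 128, 135 and 140, which share an array set with muscle, were used, all 9 members were again called higher, with Fst at 4.98, Inhba at 2.94, Tgfb1 at 2.69, Bmp4 at 2.25, Id1 at 2.08 and Fstl1 at 0.54. When each array was centred on its median in place of quantile normalization, the median difference of all genes moved from 0.09 to 0.44 and that of the members from 2.08 to 2.56, and the share of calls that were higher moved from 53.4% to 74.6%. The direction of all 9 members was the same under both scalings.

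**Figure D2:**
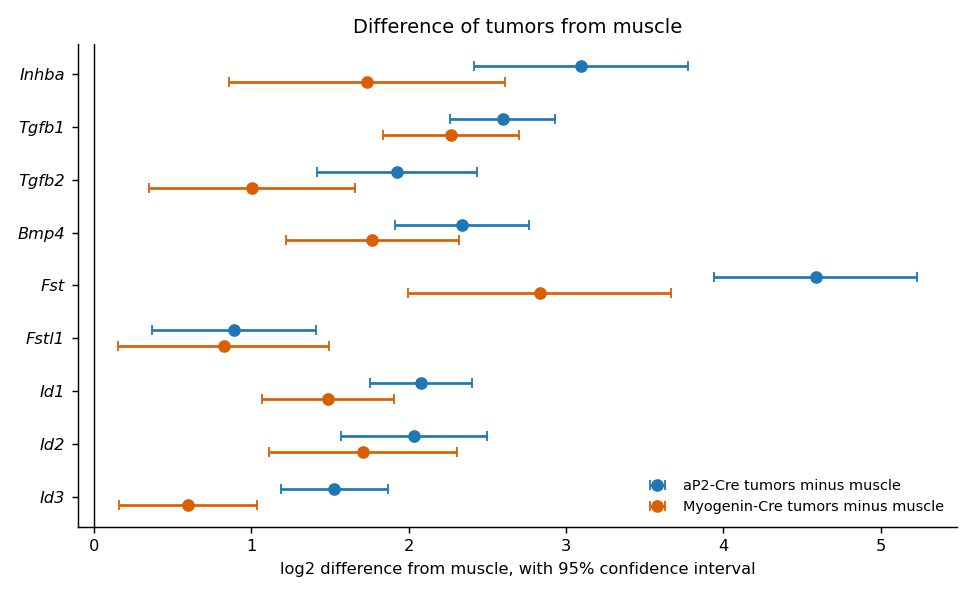
Log2 difference from muscle of the 9 tested genes, in aP2-Cre tumors and in Myogenin-Cre tumors, with 95% confidence intervals from limma. All intervals lie above 0, from Fst at 4.59 and 2.83 to Fstl1 at 0.89 and 0.82, and both series share the 3 muscle samples.

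The Myogenin-Cre tumors were tested against the same 3 muscle samples, so these values are not independent of the first. The pooled spread also takes in the aP2-Cre tumors: Bmp4 had an SD of 0.71 in Myogenin-Cre tumors, 0.27 in aP2-Cre tumors and 0.19 in muscle. Again 9 of 9 members were called higher, where 25.2% of all genes were higher and 23.9% lower, and for all 9 each tumor lay above each muscle sample, as for 32.1% of all genes. The median difference was 1.71 over the members and 0.06 over all genes.

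Fst was again the member with the largest difference. Tumors 41, 42 and 43 had 9.39, 10.38 and 8.96, a difference of 2.83 from muscle (SE 0.40, 7.12-fold, adjusted p = 7.3e-06). All 3 lay above muscle and below every aP2-Cre tumor. Tgfb1 had 9.09, 9.34 and 9.11 and a difference of 2.27 (4.82-fold, adjusted p = 2.53e-08). Bmp4 had 9.92, 11.17 and 9.95, so that tumor 42 reached the range of the aP2-Cre tumors and the others did not, with a difference of 1.77 (3.41-fold, adjusted p = 1.38e-05). The second Bmp4 probe, again given as a description, was detected in tumor 42 alone, at 6.10 beside 4.90 and 4.97 in tumors 41 and 43. Inhba had 7.76, 8.52 and 7.30, a difference of 1.74 (3.33-fold, adjusted p = 0.00181).

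Among the Id genes, Id2 had 8.40, 8.15 and 8.29, a difference of 1.71 (3.27-fold, adjusted p = 5.32e-05), and Id1 had 9.97, 10.50 and 9.99, a difference of 1.49 (2.80-fold, adjusted p = 4.31e-06). Both were far from their muscle levels, beyond the spread of either group. Tgfb2, Fstl1 and Id3 were called with less margin. Tgfb2 had 7.85, 8.68 and 7.42, a difference of 1.01 (2.01-fold, adjusted p = 0.0117). Fstl1 had 10.13, 11.23 and 10.14, a difference of 0.82 (1.77-fold, adjusted p = 0.0395). Id3 had 7.62, 8.54 and 7.89, a difference of 0.60 (1.51-fold, adjusted p = 0.0239). Without tumor 42 these became 0.66 (adjusted p = 0.102), 0.46 (adjusted p = 0.262) and 0.34 (adjusted p = 0.194) and none of them was called. Id3 was also not called without muscle sample 1 or 2, at 0.56 and 0.58, nor Fstl1 without muscle sample 2 or 3, at 0.90 and 0.66. No array set holds both groups; with the set as a covariate, which links them through aP2-Cre tumors, Tgfb2 at 1.00, Fstl1 at 0.16 and Id3 at 0.75 were not called.

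Both kinds of tumor were then compared with each other. In mean level the order was aP2-Cre tumors, then Myogenin-Cre tumors, then muscle for all 9 members, with aP2-Cre and Myogenin-Cre tumors not told apart in 4 of them. Called higher in aP2-Cre tumors were 5 of 9 members, Fst, Inhba, Id3, Tgfb2 and Id1, and 0 were called lower, where 8.08% of all genes were called higher and 7.68% lower. The median difference was 0.59 over the members and 0.01 over all genes.

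Fst was 1.75 higher in aP2-Cre tumors (SE 0.31, 3.37-fold, adjusted p = 0.000884) and was the member whose groups did not overlap, a pattern found for 3.23% of all genes. Inhba was 1.36 higher (2.57-fold, adjusted p = 0.0084) and Tgfb2 0.92 higher (1.89-fold, adjusted p = 0.0151). Among the targets, Id3 was 0.93 higher (1.90-fold, adjusted p = 0.000858) and Id1 0.59 higher (1.51-fold, adjusted p = 0.0145). The others did not pass the test. Bmp4 differed by 0.57 (95% interval 0.14 to 0.99, adjusted p = 0.0641). Its second probe, detected in 1 of 3 Myogenin-Cre tumors, is given as a description. Its means were 6.09 in aP2-Cre and 5.32 in Myogenin-Cre tumors. The intervals were -0.0045 to 0.66 for Tgfb1 (adjusted p = 0.169), -0.14 to 0.79 for Id2 (adjusted p = 0.338) and -0.46 to 0.58 for Fstl1 (adjusted p = 0.893).

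The 3 Myogenin-Cre tumors were uneven. Tumors 41 and 43 lay below every aP2-Cre tumor in 6 of 9 members (Fst, Inhba, Tgfb2, Bmp4, Id1 and Id3), whereas tumor 42 did so in Fst alone and was the highest of the 3 in 8 of 9 members, Id2 being the exception. These positions were not counted over all genes, so they do not set the members apart from other genes. Without tumor 41 or without tumor 43, 2 members were called, and without tumor 42, 6 were, Bmp4 then at 0.98 (adjusted p = 0.00124). Over all genes, the number called higher in aP2-Cre tumors also moved, from 196 to 1188 with 1 array left out.

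**Figure D3:**
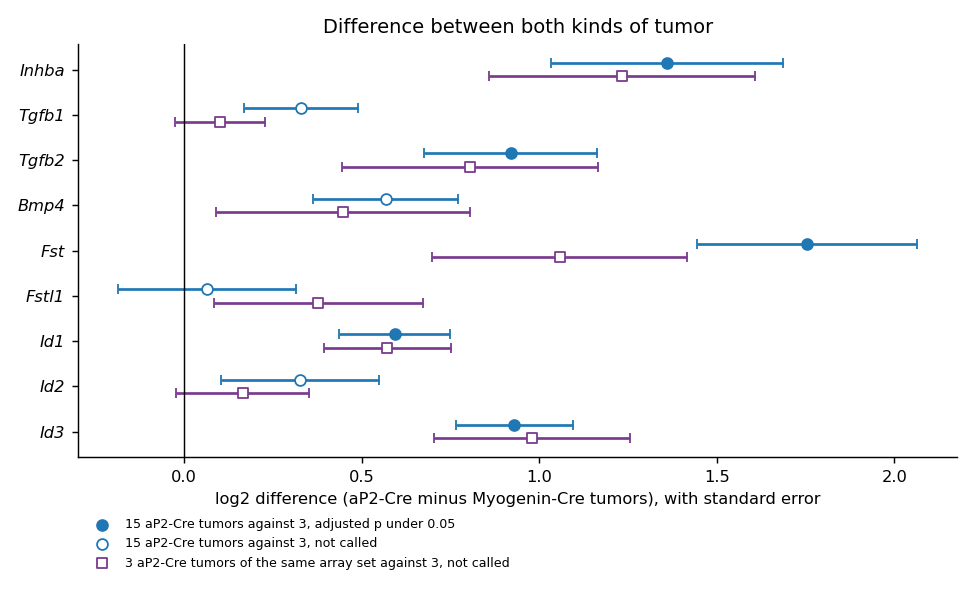
Log2 difference between aP2-Cre and Myogenin-Cre tumors of the 9 tested genes with standard errors, over all 15 aP2-Cre tumors (circles, filled where called) and over the 3 aP2-Cre tumors of the same array set (squares). Fst moves from 1.75 to 1.06, while Id3 has 0.93 and 0.98, and no square was called.

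These differences were read again within the array set that holds all 3 Myogenin-Cre tumors and aP2-Cre tumors 89, 90 and 95. There Inhba differed by 1.23 (adjusted p = 0.198), Fst by 1.06 (adjusted p = 0.234), Id3 by 0.98 (adjusted p = 0.17), Tgfb2 by 0.81 (adjusted p = 0.323) and Id1 by 0.57 (adjusted p = 0.207). None of the members was called with 3 arrays against 3, and over all genes 33 were called higher and 12 lower. Of the 5 genes, Fst was the one whose difference moved by more than 1.5 times. Its level in aP2-Cre tumors 89, 90 and 95 was 10.43 to 10.95, below all 12 other aP2-Cre tumors, which had 10.96 to 12.06. With the set as a covariate over all arrays, Id1 and Id3 were called and Fst (1.06, adjusted p = 0.1), Inhba and Tgfb2 were not. In the authors' own normalized values, Fst was called and the other 4 were not.

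**Figure D4:**
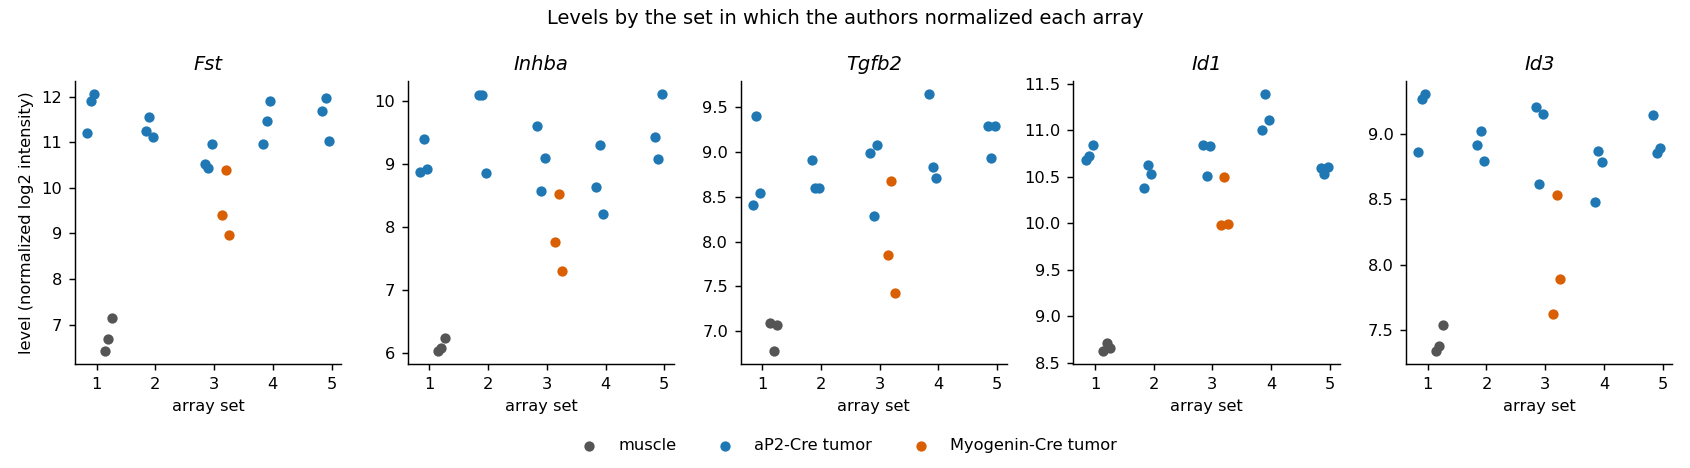
Normalized log2 intensity of the 5 genes called between both kinds of tumor, by the set in which the authors normalized each array, coloured by group. Muscle lies in set 1 and the Myogenin-Cre tumors in set 3, where the aP2-Cre tumors have the lowest Fst levels of their group, 10.43 to 10.95.

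Among the 15 aP2-Cre tumors, Inhba and Fst varied most of the 9 members, with SDs of 0.58 and 0.51, larger than those of 90.3% and 86.9% of all genes. Fstl1 and Id2 had 0.40 and Tgfb2 0.39. Id3 at 0.24, Id1, Tgfb1 and Bmp4 at 0.27 were the evenest, near or below the middle of all genes. No tumor was high throughout: tumors 140, 65 and 174 were each highest in 2 members, and tumor 104 was highest in Tgfb2 and lowest in Tgfb1, Id2 and Id3.

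Whether members varied together was tested over the 36 pairs in the 15 aP2-Cre tumors with 100000 permutations a pair. After adjustment 0 pairs passed, and 6 had an unadjusted permutation p under 0.05. The ligands Tgfb2 and Bmp4 had the highest r, 0.69 (rho 0.63, permutation p = 0.00452 and 0.0141, adjusted 0.104 and 0.144). It was 0.61 without the 2 tumors farthest from the median of Tgfb2, and 0.65 with the set means removed. Fstl1 and Tgfb1 had the lowest, -0.68 (rho -0.64, permutation p = 0.00579 and 0.0127, adjusted 0.104 and 0.144), -0.67 without the 2 farthest tumors and -0.83 with the set means removed. This relation was -0.16 after median centering and 0.05 in the authors' values, so it depends on the scaling. With the set means removed and all 7776 rearrangements within sets counted, 1 pair passed, Fstl1 with Tgfb2 (r = 0.81, exact permutation p = 0.00116, adjusted 0.0417). Its pooled r was 0.55, with rho 0.64 (permutation p = 0.0339 and 0.0116, adjusted 0.246 and 0.144), and 0.47 without the 2 farthest tumors.

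The genes most like each member over the 15 aP2-Cre tumors are given as a description, from one array per tumor and out of 11034 genes. Fst was followed most closely by Mef2c, a muscle transcription factor (r = 0.89, rho 0.92), and by Ace, the angiotensin-converting enzyme (r = 0.89). Inhba was closest to Mmp10, a secreted metalloprotease (r = 0.92), and to Septin9 (r = 0.88). Id2 was closest to Jaml and Tnfrsf4, which are known from leukocytes (r = 0.90 and 0.89), and Id3 to 2510039O18Rik and the growth factor receptor Fgfr1 (both r = 0.87). Fstl1 was closest to Ggcx (r = 0.89) and Cdk14 (r = 0.88), Tgfb1 to Pdk1 and Ankib1 (both r = 0.87), and Tgfb2 to Aox3 (r = 0.86) and the Notch target Heyl (r = 0.83). Bmp4 was closest to Aard and Milr1 (both r = 0.80), and Id1 to Zbtb2 (r = 0.85) and Gss (r = 0.78).

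The rest of the pathway was read from a list of 118 other genes, 108 of them on the array and 86 tested. In aP2-Cre tumors against muscle 59 were called higher and 10 lower (68.6% and 11.6%, beside 34.0% and 29.8% of all genes), with a median difference of 1.13 beside 0.09 over all genes. In Myogenin-Cre tumors against muscle 52 were higher and 10 lower (60.5% and 11.6%, beside 25.2% and 23.9%; median 0.81 beside 0.06). Between the tumors 19 were higher and 4 lower in aP2-Cre tumors (22.1% and 4.65%, beside 8.08% and 7.68%; median 0.23 beside 0.01), and within the shared array set 1 and 0. Genes with more than 1 role were counted under each. Genes undetected on all muscle arrays, such as Bmp7 and Fstl3, passed the filter through the tumors alone and are in these counts.

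Of 13 other genes listed as ligands and tested, 10 were called higher than in muscle in aP2-Cre tumors and 9 in Myogenin-Cre tumors. None was called lower. These are 76.9% and 69.2% higher, beside 34.0% and 25.2% of all genes. The list counts Bmp1, which despite its name is a metalloprotease and not a ligand of this family. Bmp1 is among those called higher in Myogenin-Cre tumors (2.34-fold, limma adjusted p = 9.19e-05). Bmp7, another bone morphogenetic protein, was undetected on all muscle arrays and passed the filter through the tumors alone. As a description, it was at least 8.87-fold higher in aP2-Cre tumors and at least 5.36-fold higher in Myogenin-Cre tumors. Inha, the inhibin alpha subunit that pairs with the Inhba product, rose 5.65-fold and 7.64-fold (adjusted p = 8.68e-08 and 1.01e-06). Bmp3, a ligand known to oppose bone formation, rose 5.90-fold in aP2-Cre tumors. Both were detected on 1 of 3 muscle arrays, so these folds are taken against a level mostly not above background.

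Of 15 receptors, 6 were higher and 5 lower in aP2-Cre tumors (40.0% and 33.3%), near the shares of all genes (34.0% and 29.8%). In Myogenin-Cre tumors 5 were higher and 6 lower (33.3% and 40.0%), beside 25.2% and 23.9% of all genes. Both receptors of TGF-beta were among the higher ones: Tgfbr2 rose from 10.81 ± 0.25 (SD, n = 3) in muscle to 12.51 ± 0.30 (SD, n = 15), or 3.25-fold (limma adjusted p = 2.21e-08), and Tgfbr1 rose 2.43-fold. In Myogenin-Cre tumors they rose 1.70-fold and 1.91-fold. The co-receptors of bone morphogenetic proteins Hjv, known from muscle and liver, and Rgmb fell by 1.99 and 1.40 in aP2-Cre tumors and by 2.40 and 1.58 in Myogenin-Cre tumors on the log2 scale. Rgmb was detected in 13 of 15 and 2 of 3 tumors. Acvr2b, a receptor of activin and myostatin, fell by 1.48 in aP2-Cre tumors (adjusted p = 1.27e-06) and by 1.00 in Myogenin-Cre tumors (adjusted p = 0.00262).

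Of 5 tested genes of the Smad group, 3 were higher and 2 lower in aP2-Cre tumors (60.0% and 40.0%, beside 34.0% and 29.8% of all genes). Smad1 and Smad5, which carry the bone morphogenetic protein signal, rose 2.10-fold and 1.59-fold in these tumors, and Smad2 rose 1.29-fold. Zfyve9, which anchors Smads of the activin and TGF-beta branch, fell by 1.29 on the log2 scale, and Smad3 fell by 0.37. In Myogenin-Cre tumors Smad1 and Smad5 rose 2.05-fold and 1.39-fold, and Zfyve9 fell by 1.03 on the log2 scale.

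Of 15 inhibitors of the pathway, 10 were higher and 1 lower in aP2-Cre tumors (66.7% and 6.67%, beside 34.0% and 29.8% of all genes). In Myogenin-Cre tumors 8 were higher and 2 lower (53.3% and 13.3%, beside 25.2% and 23.9%). Nog and Chrd, secreted antagonists of bone morphogenetic proteins, rose 5.17-fold and 5.01-fold in aP2-Cre tumors, and Skil, a Smad co-repressor, rose 3.33-fold. Nog and Chrd also rose in Myogenin-Cre tumors, 4.18-fold and 3.91-fold. Nog was detected on 1 of 3 muscle arrays. Fstl3, a follistatin relative that binds activin, was undetected on all muscle arrays and stood at least 1.97-fold and 1.85-fold higher, also given as a description. Wfikkn2, a secreted protein that binds myostatin, went the other way and fell by 2.30 and 1.85 on the log2 scale, detected in 9 of 15 and 2 of 3 tumors.

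Of 12 genes of the latent TGF-beta complex and its activation, 10 were higher and 1 lower in aP2-Cre tumors (83.3% and 8.33%). In Myogenin-Cre tumors 9 were higher and 1 lower (75.0% and 8.33%). The shares of all genes were 34.0% and 29.8% in aP2-Cre tumors, and 25.2% and 23.9% in Myogenin-Cre tumors. Mmp14, a membrane-bound metalloprotease, rose 8.52-fold and Ltbp1, which holds latent TGF-beta in the matrix, 6.10-fold, beside 5.64-fold and 4.62-fold in Myogenin-Cre tumors. Of 17 other target genes, 14 were higher and 1 lower in aP2-Cre tumors (82.4% and 5.88%, median 2.10). In Myogenin-Cre tumors 13 were higher and 0 lower (76.5% higher, median 1.49), beside the same shares of all genes. Ccn2, the connective tissue growth factor, rose 14.6-fold and 7.57-fold, Cdkn1a, the cell cycle inhibitor p21, 9.89-fold and 8.41-fold, and Acta2, smooth muscle actin, 4.90-fold and 5.76-fold. The target called lower in aP2-Cre tumors was Klf10, which fell by 0.44 on the log2 scale.

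Of 7 partners of Id proteins and Id relatives, 5 were higher in aP2-Cre tumors and 4 in Myogenin-Cre tumors, and 0 were lower. These are 71.4% and 57.1% higher, beside 34.0% and 25.2% of all genes. Myog, the gene of myogenin, rose 28.0-fold in aP2-Cre tumors, Myod1 7.99-fold and Tcf4, an E-protein, 2.00-fold. Among genes with a follistatin-like domain, Sparc, a matrix protein, rose 3.23-fold and 2.63-fold. Spock2, a matrix proteoglycan, was undetected on all muscle arrays and stood at least 2.62-fold higher in Myogenin-Cre tumors, also given as a description.

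**Figure D5:**
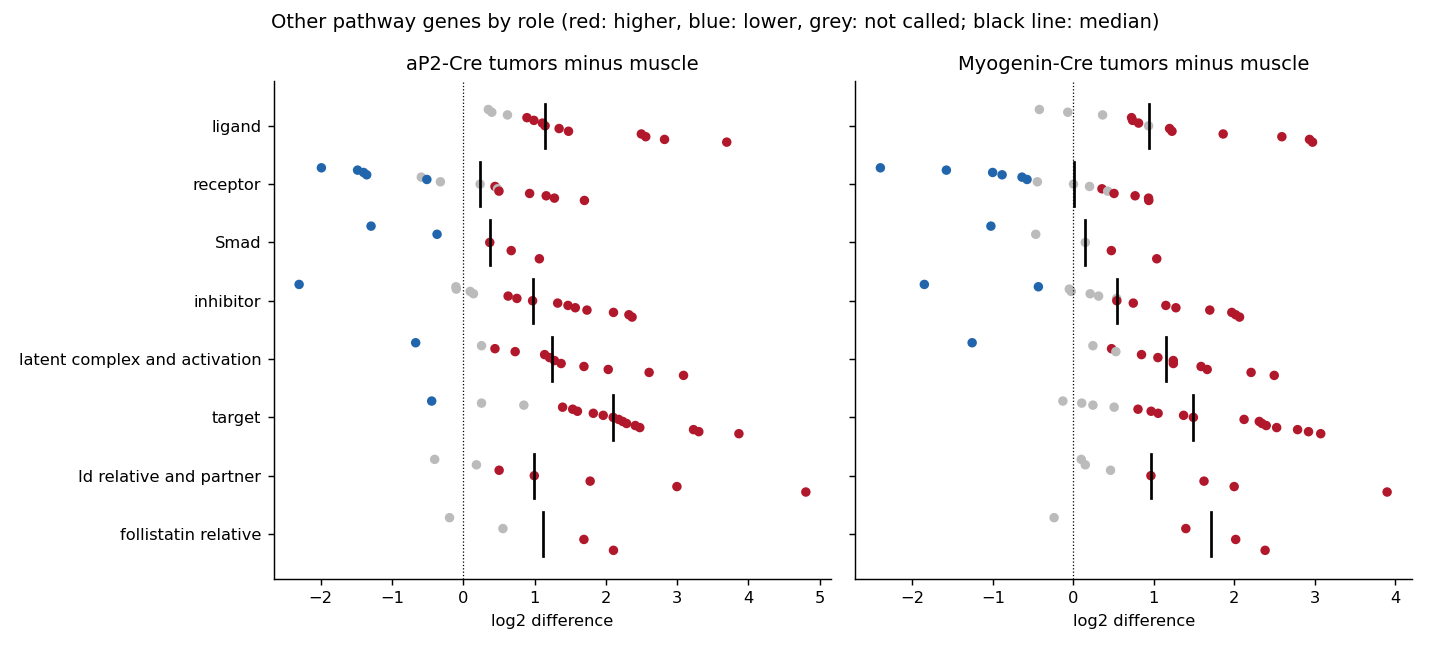
Log2 difference from muscle of the 86 tested pathway genes by role, in aP2-Cre tumors (left) and Myogenin-Cre tumors (right), coloured red where called higher, blue where called lower and grey where not called, with a black line at each median. Target genes have medians of 2.10 and 1.49, while receptors lie on both sides of 0, with 6 higher and 5 lower on the left.

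Between both kinds of tumor, the pathway genes called higher in aP2-Cre tumors included the receptor Tgfbr2 (1.91-fold, adjusted p = 0.00108) and the targets Cdkn2b, a cell cycle inhibitor (2.70-fold), Pmepa1 (2.27-fold) and Ccn2 (1.93-fold). Twsg1, a binder of bone morphogenetic proteins, was 2.02-fold higher and Smad6, the inhibitory Smad of that branch, 1.91-fold higher. The ligands Bmp5, detected in 1 of 3 Myogenin-Cre tumors, and Tgfb3 were 2.27-fold and 1.67-fold higher. Spock2 at 3.54-fold, Tgfbr3 at 2.02-fold, Bmp8a at 1.79-fold and Tagln at 1.73-fold were the 4 genes higher in Myogenin-Cre tumors. Spock2 was detected in 5 and Bmp8a in 3 of 15 aP2-Cre tumors, so both folds are taken against a level mostly not above background.

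Markers of several other cell types, though not all, also differed between these groups. Summed macrophage markers (Csf1r, Adgre1 and C1qa among 8) had a linear intensity of 1180 to 2038 in muscle, 4867 to 12472 in aP2-Cre tumors and 2090 to 3382 in Myogenin-Cre tumors, and 8 of 8 were higher in aP2-Cre tumors than in muscle, 2 of 8 in Myogenin-Cre tumors, and 6 of 8 in aP2-Cre over Myogenin-Cre tumors. Fibroblast markers (Pdgfra, Pdgfrb and Col1a1 among 9) had 13754 to 17212, 26288 to 43941 and 22771 to 32651. In the same comparisons 8, 4 and 3 of 9 were higher (88.9%, 44.4% and 33.3%, beside the same shares of all genes). Myoblast markers (Myod1, Myog and Des among 8) had 11807 to 14096 in muscle, 70346 to 104438 in aP2-Cre tumors and 73061 to 97649 in Myogenin-Cre tumors. Against muscle, 8 of 8 were higher in aP2-Cre tumors and 7 of 8 in Myogenin-Cre tumors (100% and 87.5%, beside 34.0% and 25.2% of all genes). Des rose 1.27-fold in aP2-Cre tumors and was not called in Myogenin-Cre tumors. White adipocyte markers (Adipoq, Plin1 and Lep among 6) were lower in the tumors, at 278 to 1721 and 944 to 1327 against 5771 to 7156 in muscle. Endothelial markers had 4509 to 5109, 4753 to 7408 and 5476 to 6006. Of 7 tested, 2 were higher and 3 lower in aP2-Cre tumors than in muscle (28.6% and 42.9%, beside 34.0% and 29.8% of all genes). In Myogenin-Cre tumors 2 were higher and 0 lower (28.6% higher, beside 25.2% of all genes). Brown adipocyte markers (Ucp1, Cidea and Cox8b among 6) had 35280 to 39496 in muscle, 5206 to 19428 in aP2-Cre tumors and 16525 to 25424 in Myogenin-Cre tumors. Muscle also expresses some of them. Ucp1, known from brown fat, had means of 11.45 in muscle, 4.67 in aP2-Cre and 4.94 in Myogenin-Cre tumors, the largest fall of all 11034 genes in both. In aP2-Cre tumors 5 of 6 were lower than in muscle and Dio2 was higher (83.3% and 16.7%, beside 29.8% and 34.0% of all genes). Dio2 was undetected on all muscle and Myogenin-Cre arrays and passed the filter through the aP2-Cre tumors alone. As a description, it stood at least 1.02-fold higher in them than in muscle. Erythroid markers had 31659 to 39926, 1713 to 30290 and 13247 to 21948. Of 3 tested lymphocyte markers, 0 were detected in muscle and 3 in some aP2-Cre tumor, and 0 were called in any comparison. The part of these cells in the members' differences was not tested.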

How the data were processed

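Per the labels' protocols, total RNA (Trizol, column clean-up, DNase) was made into biotinylated cRNA. Linear intensity, not normalized, and a detection p-value were deposited for each probe on each array; the lowest intensity per array was 95.3 to 122, so no background had been subtracted, and the p-values move in steps of 1 in 936. The authors also deposited an intensity table that they had quantile normalized in 5 sets, which share 1 distribution of values each. Per the submitters' processing notes BeadStudio was used; the build and further steps are not given in those notes or the labels. Columns were matched to samples by label, and 1 with transposed letters by its number 42.

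Intensities were background-corrected with normexp from the detection p-values (offset 16), quantile normalized and put on the log2 scale (limma 3.58.1, R 4.3.3). Probes detected (p under 0.01) on at least 3 arrays were kept, 19655 of 45281, with 1 symbol (34885 probes; 18 had several and 10378 none); per gene the probe with the highest mean was used, giving 11034 genes. Groups were compared in limma by a two-sided moderated test (lmFit, contrasts.fit, eBayes, trend on) in 1 model of 3 group means, Benjamini-Hochberg adjusted over all genes, and pairs of members with permutation tests. For genes undetected in a group, the fold is a bound: the mean of the bright group against, averaged over the dim arrays, the higher of the probe's level and the dimmest detected probe. The fit was tested on simulated data. The members, gene lists and tests were chosen with earlier results of these data known. Named are the 10 members, per role and comparison the called pathway genes with the smallest adjusted p (up to 3 higher and 3 lower), the 2 genes most like each member, and up to 3 markers per list. Alternatives covered background, offset, normalization, the authors' values, the probe filter, the choice of probe, array weights, array set, replicate number and leaving out arrays.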

Additional observations from a re-analysis of the deposited data

Results flagged for a closer look

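For 5 members the difference from muscle was itself different between both kinds of tumor, by the limma contrast of aP2-Cre with Myogenin-Cre tumors. The shared muscle level cancels out of this contrast, so these are the same tests as given above and not further ones. Fst was 1.75 further above muscle in aP2-Cre tumors than in Myogenin-Cre tumors (adjusted p = 0.000884, 15 of 15 aP2-Cre tumors above all 3 others), and 1.06 within the shared array set (adjusted p = 0.234). Inhba differed by 1.36 (adjusted p = 0.0084, 14 of 15 tumors) and by 1.23 within the set. Id3 differed by 0.93 (adjusted p = 0.000858, 14 of 15 tumors) and by 0.98 within the set. Tgfb2 differed by 0.92 (adjusted p = 0.0151, 10 of 15 tumors) and by 0.81 within the set. Id1 differed by 0.59 (adjusted p = 0.0145, 14 of 15 tumors) and by 0.57 within the set, where 3 arrays stood against 3 and 0 of these 5 were called.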

How the results depend on the processing

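Against muscle, all 9 members kept their direction under every alternative run, in both kinds of tumor. In aP2-Cre tumors 161 of 162 single-gene values stayed on their side of the threshold, the exception being Fstl1 with the array set as a covariate (0.54). In Myogenin-Cre tumors 129 of 144 did; the 15 others belong to Fstl1, Id3, Tgfb2 and Inhba, the last at 0.98 in the authors' values (adjusted p = 0.0507). Between the tumors the count of members called higher was 5, and it was 1 in the authors' values, 2 with the set as a covariate, 0 within the shared set and 2 to 6 with 1 array left out. Fstl1 changed sign there: it was -0.015 in the authors' values and ran from -0.12 (without tumor 41 or 43) to 0.43 (without tumor 42) with 1 array left out. The pathway genes called higher between the tumors were 19, and 6 in the authors' values, 35 with array weights, 4 with the set as a covariate, 1 within the set and 5 to 24 with 1 array left out; those called lower were 4, and 2 after median centering, 2 with detection on at least 10 arrays, 7 with each probe on its own, 2 with the set as a covariate, 0 within the set and 1 to 4 with 1 array left out. Over all genes 891 were called higher and 847 lower between the tumors. These counts were 207 and 322 in the authors' values, 1661 and 1431 with array weights, 201 and 208 with the set as a covariate, 33 and 12 within the set, and 196 to 1188 and 170 to 1005 with 1 array left out. Median centering left 226 lower between the tumors, 1722 lower in aP2-Cre tumors and 1398 lower in Myogenin-Cre tumors against muscle, and 6 lower pathway genes in each comparison with muscle; it moved the share of calls that were higher from 51.3% to 67.8% in Myogenin-Cre tumors against muscle and from 51.3% to 82.1% between the tumors. Bmp4 was called between the tumors at 0.72 after median centering, 0.67 as the mean of its probes, 0.81 with array weights and 0.98 without tumor 42. Of 36 pairs of members 1 passed with set means removed and 5 in the authors' values. The cause of these changes was not tested, also where an alternative holds fewer arrays.

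Tumors 128, 135 and 140 and the muscle samples share the numbers 1 to 3 in their descriptions. With that number as a replicate block, 9 of 9 members were called higher against muscle and Fst differed by 4.98. Same-numbered samples deviated together at r = -0.16, -0.13 and 0.07 across genes, and differently numbered ones at -0.12 to 0.17. Taken from means of 3 arrays, these values cannot show whether same-numbered samples share more than a number. Over these 6 arrays 3251 genes were called higher and 2970 lower with the block, and 3427 and 3109 without it.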
